A study of Drosophila melanogaster with 4 samples.

Results

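The vacuolar proton pump genes of Drosophila melanogaster were taken as every row of the deposited table whose FlyBase gene ID has a symbol starting with Vha. The table lists 15682 genes and 28 of them carry such a symbol. The gene name table used here holds 33 Vha symbols, and the other 5 (Vha68-1, Vha44, Vha26, Vha13 and VhaAC39-1), whose current IDs match no row, were not analysed here. Of the 28 genes, 15 had a mean normalised count of at least 10 and were tested, and 13 did not. Because the low genes drop out and the 5 others match no row, the counts below cover the 15 tested genes and not the whole family. Subunits C, E and G, encoded by Vha44, Vha26 and Vha13, are therefore not covered at all. For subunit d only VhaAC39-2 was matched, and it was not among the tested genes. Whether the 5 unmatched genes were expressed is not known here. Poly(A) RNA from fly heads was sequenced from 4 libraries: 2 of w1118 flies, labelled as not expressing MJDtr-78Q, and 2 of flies labelled as expressing it. MJDtr-78Q is a shortened human ataxin-3 (the MJD protein) whose polyglutamine stretch is expanded. The driver of the transgene, the age and sex of the flies, the number of heads per library and the strain behind the MJDtr-78Q flies are not stated in the labels, and the human transgene was not analysed here. Nothing in the labels says that the libraries of a group came from separate flies or cultures, so the p-values measure only the spread between these libraries, which may be technical.

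The vacuolar ATPase pumps protons into lysosomes, endosomes, the Golgi and synaptic vesicles. Its peripheral part, V1, splits ATP and turns a central shaft, and its membrane part, V0, holds a ring of proteolipids that carries protons across the membrane as it turns. The low pH it makes drives lysosomal enzymes and the loading of neurotransmitters into vesicles. Flies have several copies of many subunit genes, and some copies are used in few tissues only.

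Values below are log2(normalised count + 1) after quantile normalisation over the 4 libraries, and differences are MJDtr-78Q minus control, unless said otherwise. The deposited values had been scaled within each group only, which shifted the median difference over all genes to -1.24, so those levels cannot be compared directly between groups. Without a common scaling 14 of the 15 tested Vha genes, and 74.7% of all genes, passed limma at an adjusted p of 0.05. The deposited values summed, after back-transformation, to 7147867 and 7147717 in the controls and 3111583 and 3111393 with MJDtr-78Q. Whole reads could not be recovered, so the counting error of each gene is unknown. Pearson's r over the 9049 tested genes was 0.9745 for the control pair and 0.910 for the MJDtr-78Q pair. Neuronal markers were present in all 4 libraries, as the head label implies, and testis markers summed to between 4 and 12 normalised counts per library. The summed level of the 8 photoreceptor markers was 129001 to 130507 in control and 67911 to 83940 in MJDtr-78Q libraries, and that of the 6 neuronal markers was 13477 to 18141 in control and 16966 to 27979 in MJDtr-78Q libraries. The 6 muscle markers summed to 35344 to 38443 in control and 45134 to 70222 in MJDtr-78Q libraries, with all 6 differences above 0 (median 0.50), and the 5 hemocyte markers to 2007 to 2649 and 2762 to 4578, with all 5 above 0 (median 0.47). Below 0 were 7 of the 8 photoreceptor and 1 of the 6 neuronal differences, against 53.4% of all tested genes. The ranges of the neuronal sums overlapped, and those of the photoreceptor, muscle and hemocyte sums did not. Glial markers summed to 14310 to 16661 in control and 14693 to 19981 in MJDtr-78Q libraries. Fat body markers summed to 136407 to 143773 and 118740 to 147610. Those of Malpighian tubule and gut summed to 998 to 1096 and 1024 to 1309. These ranges overlapped between groups. No photoreceptor, neuronal, muscle or hemocyte marker was at 0 in all libraries. In whole heads, fewer cells of a type and less RNA per cell cannot be told apart, and the part of these shifts in the pump values was not tested.

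No tested pump gene was called as changed in MJDtr-78Q heads, but closeness to the control levels was not shown either. The limma intervals of 7 of the 15 genes reached a 2-fold change. Differences of the 15 tested genes ran from -0.37 (Vha68-2) to 0.04 (Vha16-1), with a median of -0.19, or 87.5% of the control level. The median over all 9049 tested genes was -0.02, with quartiles of -0.23 and 0.19. Below 0 were 13 of the 15 genes, against 53.4% of all tested genes. None of the 15 passed limma at an adjusted p of 0.05 (adjusted p = 1 for each), where the background was 0% of all tested genes. At an unadjusted p under 0.05 there were 0 of the 15 and 532 of the 9049 (5.88%). Both MJDtr-78Q libraries lay on the same side of both controls in 3 of the 15, against 29.5% of all tested genes, a share no higher than the background. In all 3 they lay below, as in 15.5% of all tested genes, while 0 of the 15 lay above, against 14% of all.

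**Figure D1:**
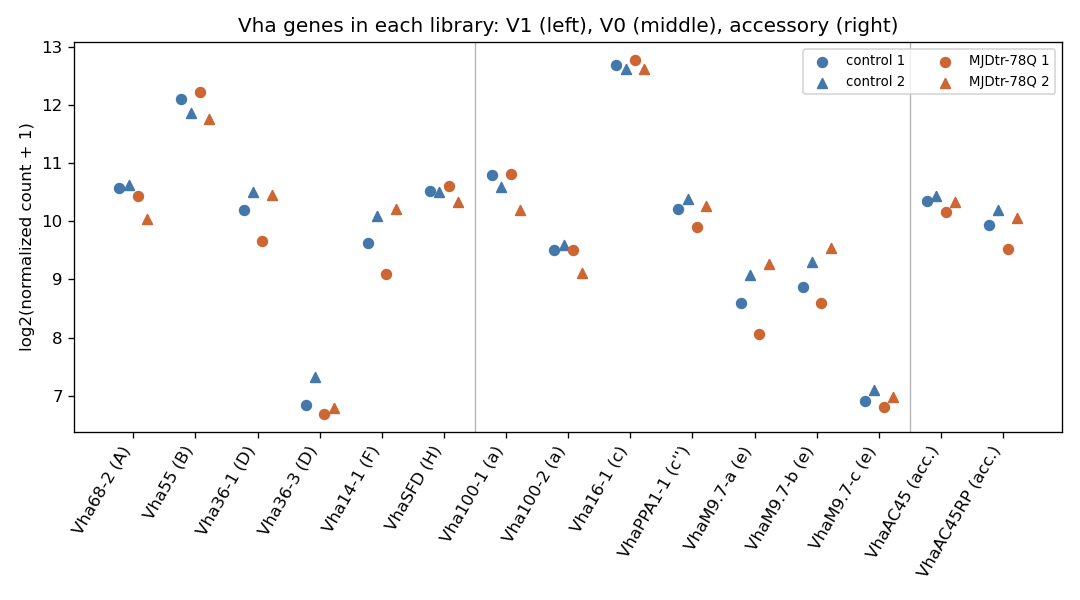
Log2(normalised count + 1) of the 15 tested Vha genes (y axis) in each of the 4 libraries, ordered by subunit (in brackets, acc. for accessory) along the x axis. Blue marks control and orange MJDtr-78Q, circles replicate 1 and triangles replicate 2; the groups overlap in 12 of the 15 genes, and the widest gaps lie between the MJDtr-78Q replicates of Vha14-1 and VhaM9.7-a.

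Among the 6 tested V1 genes the median difference was -0.25, with 5 below 0. Vha68-2 (FBgn0263598, 2L, positions 12974321 to 12978615 in the deposited table, whose build is not given), which encodes a form of the ATP-splitting subunit A, was at 10.58 and 10.63 in the controls and at 10.43 and 10.04 with MJDtr-78Q. The groups did not overlap, and MJDtr-78Q library 2 lay the lowest. The difference was -0.37 (SE 0.25, 95% interval -1.02 to 0.29; limma adjusted p = 1), or 77.6% of control. Vha55 (FBgn0005671, 3R, positions 8449483 to 8453551), the gene of the partner subunit B in the catalytic ring, was at 12.11 and 11.86 in the controls and at 12.22 and 11.76 with MJDtr-78Q. Here the MJDtr-78Q values enclosed the controls, and the difference was 0.01 (SE 0.27, 95% interval -0.69 to 0.71). The A and B subunits alternate in the same ring, so a pump needs equal numbers of them. A second subunit A gene, Vha68-1, is among those not analysed here, so the A total cannot be given.

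The central shaft holds subunits D and F. Vha36-1 (FBgn0022097, 2R, positions 11428921 to 11430003), the main D gene in these heads, was at 10.19 and 10.51 in the controls and at 9.67 and 10.45 with MJDtr-78Q. Vha36-3 (FBgn0040377, X, positions 2473276 to 2474330), another D gene, was at 6.83 and 7.33 in the controls and at 6.68 and 6.79 with MJDtr-78Q. MJDtr-78Q library 1 was low for Vha36-1 while library 2 fell within the control range, and for Vha36-3 both MJDtr-78Q libraries lay just under the lower control. The differences were -0.29 (SE 0.35) for Vha36-1 and -0.34 (SE 0.27) for Vha36-3. Vha14-1, the F gene (FBgn0262512, 2R, positions 11566930 to 11567585), was at 9.62 and 10.09 in the controls and at 9.09 and 10.21 with MJDtr-78Q, where the MJDtr-78Q pair was lowest and highest of the 4. Its difference of -0.21 (SE 0.45) had a 95% interval of -1.36 to 0.95, so a 2-fold fall was not excluded. VhaSFD (FBgn0027779, 2L, positions 16723137 to 16727825), which encodes subunit H, a regulator of the coupling of V1 to V0, was at 10.52 and 10.50 in the controls and at 10.61 and 10.33 with MJDtr-78Q, a difference of -0.04 (SE 0.23).

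Among the 7 tested V0 genes the median difference was -0.18, with 6 below 0. Subunit a forms the path that protons take past the ring and helps to set in which membrane the pump sits. Vha100-1 (FBgn0028671, 3R, positions 24956771 to 24963702), the copy known for its work in fly neurons and synapses, was at 10.80 and 10.59 in the controls and at 10.81 and 10.19 with MJDtr-78Q. Vha100-2 (FBgn0028670, 3R, positions 14216044 to 14224891), a copy also used outside the nervous system, was at 9.50 and 9.59 in the controls and at 9.51 and 9.11 with MJDtr-78Q. In both genes MJDtr-78Q library 1 sat at the control level and library 2 below it. The differences were -0.19 (SE 0.30, 95% interval -0.98 to 0.59) for Vha100-1 and -0.24 (SE 0.25, 95% interval -0.90 to 0.42) for Vha100-2.

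The proteolipid gene Vha16-1 (FBgn0262736, 2R, positions 2512746 to 2520633), which encodes subunit c of the rotating ring, had the smallest standard error of the 15. Its values were 12.69 and 12.62 in the controls and 12.78 and 12.62 with MJDtr-78Q. The 4 values lay close together, and the difference was 0.04 (SE 0.21, 95% interval -0.51 to 0.60). VhaPPA1-1 (FBgn0028662, 3R, positions 10728047 to 10729796), the gene of the related ring subunit c'', was at 10.22 and 10.39 in the controls and at 9.91 and 10.27 with MJDtr-78Q. Library 1 was low and library 2 lay between the controls, with a difference of -0.21 (SE 0.25).

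Subunit e is a very small membrane protein, for which 3 of the 4 genes were expressed. VhaM9.7-a (FBgn0035521, 3L, positions 4262704 to 4263464) was at 8.59 and 9.08 in the controls and at 8.05 and 9.26 with MJDtr-78Q. VhaM9.7-b (FBgn0028663, 3L, positions 21532961 to 21534315) was at 8.87 and 9.30 in the controls and at 8.59 and 9.55 with MJDtr-78Q. For these 2 genes the MJDtr-78Q replicates enclosed both controls. VhaM9.7-c (FBgn0028664, 3L, positions 4186017 to 4186865) was lower, at 6.91 and 7.10 in the controls and at 6.80 and 6.97 with MJDtr-78Q. The differences were -0.18 (SE 0.47), -0.02 (SE 0.40) and -0.12 (SE 0.23); that of VhaM9.7-b turned to above 0 with TMM scaling (0.02), upper-quartile scaling (0.01) and, relative to all genes, the deposited scaling (0.06).

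Accessory subunits help assemble V0 and guide the pump. VhaAC45 (FBgn0262515, 2R, positions 5095066 to 5097169), the counterpart of human ATP6AP1, was at 10.36 and 10.43 in the controls and at 10.16 and 10.33 with MJDtr-78Q. The groups did not overlap, but the difference was small, -0.15 (SE 0.23, 95% interval -0.74 to 0.44). The related gene VhaAC45RP (FBgn0051030, 3R, positions 25990413 to 25992152) was at 9.94 and 10.19 in the controls and at 9.52 and 10.06 with MJDtr-78Q, a difference of -0.28 (SE 0.29). ATP6AP2 (FBgn0037671, 3R, positions 5086362 to 5088315), an accessory subunit formerly called VhaM8.9 and so no longer caught by its symbol, was at 10.61 and 10.75 in the controls and at 10.20 and 10.53 with MJDtr-78Q, a difference of -0.32 (SE 0.25; limma adjusted p = 1).

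**Figure D2:**
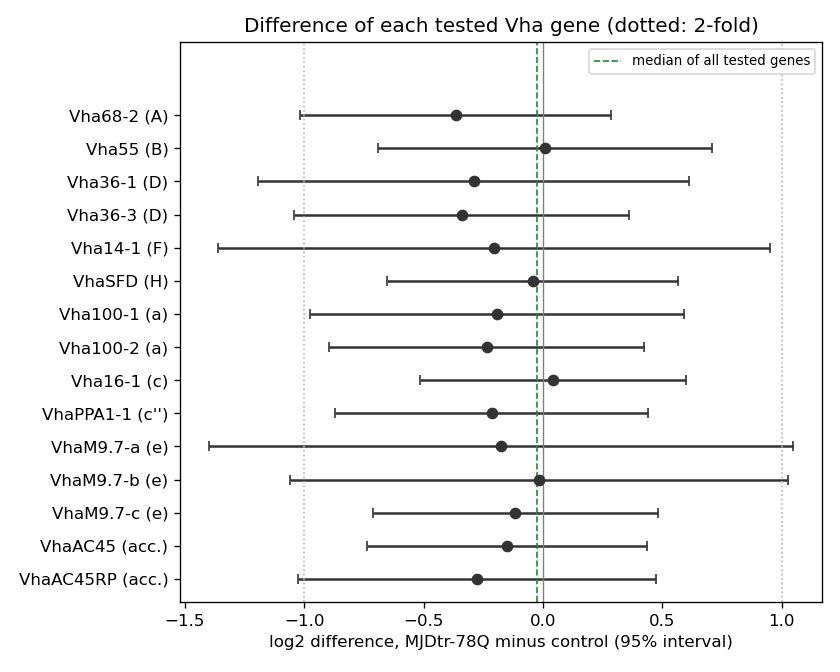
Log2 difference, MJDtr-78Q minus control, of each tested Vha gene (points, x axis) with its 95% interval from limma (bars), by gene and subunit (y axis). All 15 intervals cover 0, and the dotted lines at a 2-fold change are crossed by 7 of them, among them those of the short genes Vha14-1, VhaM9.7-a and VhaM9.7-b.

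The 95% intervals reached a 2-fold change for 7 genes and stayed short of it for 8. How wide an interval was depended on the gaps between replicates of both groups, and those gaps tended to follow exonic length. Whether it reached 2-fold depended on the difference too, as for Vha68-2 (2759 bases, difference -0.37, lower bound -1.02). Exceptions to the length trend included VhaM9.7-c, of 848 bases, with an MJDtr-78Q gap of 0.17. In the 6 genes with an exonic length under 1300 bases, MJDtr-78Q replicate 2 lay above replicate 1 by 0.11 to 1.21. In the 6 genes of at least 2700 bases, replicate 2 lay below replicate 1, with gaps of -0.62 to -0.15. The 3 genes between these bounds had gaps of 0.17 to 0.54. The control replicates showed a smaller tilt, from 0.19 to 0.50 in the short genes and from -0.25 to 0.09 in the long ones. Across the 15 genes Spearman's rho between gap and length was -0.86 in MJDtr-78Q and -0.83 in control, given as a description since genes of the same libraries are not independent. Over the 8641 tested genes with a known length (95.5%) it was -0.75 and -0.63, so the tilt is shared by the libraries at large. The gap between the MJDtr-78Q replicates exceeded the difference between groups in 14 of the 15 genes. The share of all tested genes with such a gap was not counted. The median size of that gap was 0.40 in the 15 genes and 0.52 over all tested genes.

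When a smooth length trend was removed from each library, the median size of the MJDtr-78Q replicate gap went from 0.40 to 0.25. The median standard error went from 0.27 to 0.17. The gap of VhaM9.7-a, the largest of the 15 before, went from 1.21 to 0.40. Those of VhaM9.7-c (0.17 to -0.55) and Vha36-3 (0.11 to -0.36) instead widened, and that of VhaM9.7-c was then the largest in size. Differences then ran from -0.38 (Vha68-2) to 0.05 (VhaM9.7-b), with a median of -0.12. All 15 intervals now stayed short of a 2-fold change in either direction, the widest reach being -0.79 and 0.57. Still 0 of the 15 passed by limma, at an adjusted p or at an unadjusted p under 0.05, where 12.1% of the 8641 genes had such a p. The lowest p was that of Vha68-2, at -0.38 (SE 0.17; limma adjusted p = 0.458).

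**Figure D3:**
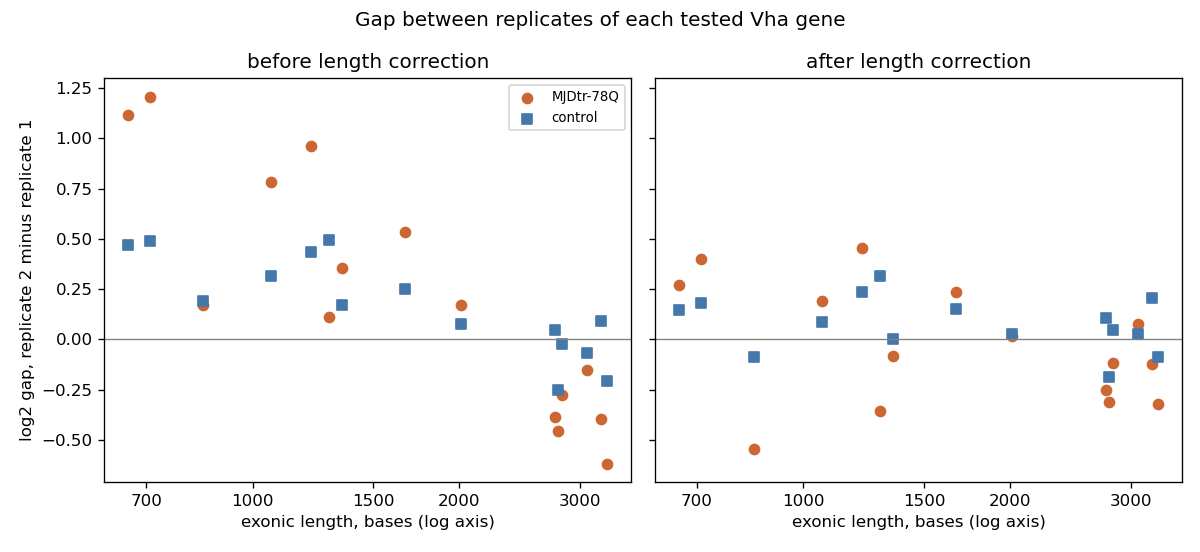
Log2 gap between replicates, 2 minus 1 (y axis), against exonic length in bases on a log axis (x axis) for the 15 tested Vha genes, before (left) and after (right) removal of the length trend; orange circles are MJDtr-78Q and blue squares control. Before correction the MJDtr-78Q gaps run from 1.21 among short genes to -0.62 among long ones. Afterwards none exceeds 0.55 in size, the value of VhaM9.7-c, whose gap the correction widened.

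The overall tendency towards lower values was small against these gaps and varied with the library left out. Per-library medians of the 15 genes were 10.19 and 10.39 in the controls and 9.67 and 10.19 with MJDtr-78Q. Leaving out MJDtr-78Q library 1 took the median difference to -0.04, and leaving out control library 2 took it to -0.11. Leaving out the other control gave -0.28, and leaving out MJDtr-78Q library 2 gave -0.24.

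Levels were compared between the tested genes only, as normalised counts per kb of exon. Vha16-1 ranked first in all 4 libraries, at 2149 and 2048 in the controls and 2278 and 2048 with MJDtr-78Q. Vha55, Vha14-1 and Vha36-1 held the next 3 places in every library, but the place of Vha55 among them was not fixed. It was the highest of the 3 in replicate 1 of both groups and the lowest of them in replicate 2 of both. Vha55 has an exonic length of 2786 bases, against 659 for Vha14-1 and 1064 for Vha36-1. The part of the length tilt in this order was not tested. Vha14-1 lay above Vha36-1 within each library, while the ranges of the 2 genes over the libraries overlapped. VhaPPA1-1 came next in all libraries, at 879 and 990 in the controls and 710 and 910 with MJDtr-78Q. The middle of the order, with the accessory genes, Vha68-2, VhaSFD, Vha100-1, VhaM9.7-a and VhaM9.7-b, changed from library to library. At the low end Vha100-2, VhaM9.7-c and Vha36-3 kept the last 3 places throughout, with Vha36-3 at 87.2 and 123 in the controls and 78.7 and 85.0 with MJDtr-78Q.

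Which copy of a subunit the heads used differed little between groups. These shares are from the deposited values per kb of exon within each library, which a scale factor for a whole library leaves as they are. Quantile normalisation moves them slightly. The length tilt between replicates is not such a factor, and its part in these shares was not tested. Vha100-1 made up 70.9% and 66.1% of subunit a transcripts in the controls and 70.1% and 67.2% with MJDtr-78Q. Vha100-2 made up nearly all of the rest, with 28.8% and 33.3% in the controls and 29.6% and 32.5% with MJDtr-78Q. For both genes the MJDtr-78Q shares on these deposited values fell inside the control range. Vha36-1 held 92.4% and 91.5% of subunit D in the controls and 90.9% and 94.0% with MJDtr-78Q, and Vha36-3 held most of the remainder.

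Subunit e was the most evenly split family. VhaM9.7-a held 50.8% and 52.6% in the controls and 45.5% and 53.3% with MJDtr-78Q, which overlap. VhaM9.7-b held 35.6% and 35.9% in the controls and 38.9% and 38.0% with MJDtr-78Q, the one share of the expressed a, D and e copies whose groups did not overlap. The mean shares were 35.8% ± 0.201 and 38.5% ± 0.644 (SD, n = 2 each), a difference of 2.71 percentage points. With 2 against 2 libraries an exact two-sided permutation test cannot go below p = 0.333, so none was used. For comparison, the levels of 29.5% of all tested genes had groups that did not overlap. Shares within a family sum to 100% and so are not independent. For subunits c, c'' and F a single gene made up almost the whole family, Vha16-1, VhaPPA1-1 and Vha14-1, the lowest of their shares being 99.7% for VhaPPA1-1 in MJDtr-78Q library 1.

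**Figure D4:**
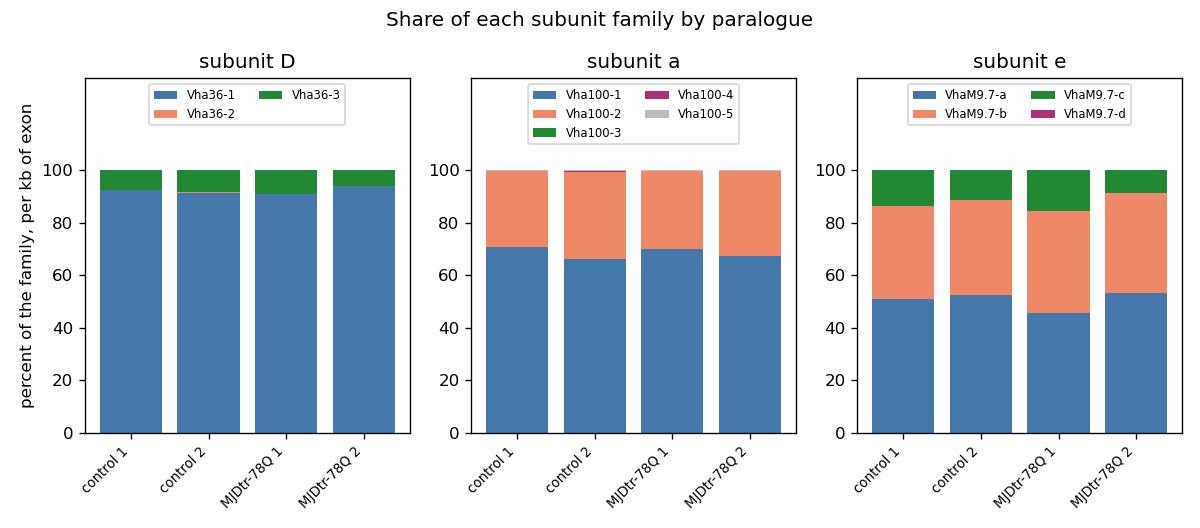
Share of each paralogue in the transcripts of subunits D, a and e, as a percent of the family per kb of exon (y axis, stacked bars from 0 to 100), in each library (x axis). Vha36-1 dominates D at 90.9% to 94.0%, Vha100-1 leads a at 66.1% to 70.9%, and subunit e is divided among VhaM9.7-a, VhaM9.7-b and VhaM9.7-c.

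The 13 remaining Vha genes were near or at 0, with no deposited log2 value above 3.50. Listed at 0 in all 4 libraries were 6 of them: Vha100-3, Vha16-2, Vha16-3, Vha16-4, VhaAC39-2 and VhaM9.7-d. Vha14-2, Vha16-5 and VhaPPA1-2 were above 0 in 1 library each. On the deposited scale Vha36-2 had 0.50 and 2.40 in the controls against 0 and 1 with MJDtr-78Q, and no library had Vha68-3 above 1.29. Vha100-5 had 2.82 and 3.02 in the controls against 2.16 in both MJDtr-78Q libraries, a gap smaller than the shift in scaling between the groups. Vha100-4 had 2.40 and 3.50 in the controls and was listed at 0 in both MJDtr-78Q libraries. With no filter on low values its fitted difference was -2.49 (SE 0.45; limma adjusted p = 0.563), a size that depends on the pseudocount of 1. Deposited totals are lower in the MJDtr-78Q libraries after the scaling within groups, and sequencing depth is not known. At these levels a loss was therefore not separable from scaling or depth.

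Some Vha genes are close neighbours, and in 3 such pairs a well expressed gene stood beside one near 0. Vha68-3 lies 169 bases from Vha68-2, Vha100-4 lies 518 bases from Vha100-2, and VhaPPA1-2 lies 2047 bases from VhaPPA1-1, in the deposited coordinates. Vha16-2 and Vha16-3, 984 bases apart, were both listed at 0. How the authors' counting treated reads shared between copies is not stated, so the few counts of the silent neighbours are uncertain.

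Genes that work with the pump gave no call either, as with all 9049 tested genes, whose lowest limma adjusted p was 0.512. A count of 0 therefore sets none of the lists below apart. An unadjusted limma p under 0.05 was found for 5.88% of all tested genes. Of the 7 tested assembly and chloride transport genes, 0 passed limma over all genes, with a median of 0.02 and 0 at an unadjusted p under 0.05. The groups did not overlap in 1 of these 7, against 29.5% of all tested genes. Rbcn-3A, which encodes a scaffold that helps V1 join V0, was at 9.67 and 9.18 in the controls and at 10.85 and 8.99 with MJDtr-78Q, a difference of 0.50 (SE 0.66). The MJDtr-78Q libraries lay on both sides of the controls, and without MJDtr-78Q library 1 the difference was -0.43. CG5969, of the same list, differed by -0.34 (SE 0.31).

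Of 14 tested genes of nutrient sensing at the lysosome, 0 passed, with a median of -0.06 and 0 at an unadjusted p under 0.05. In 3 of the 14 the groups did not overlap, against 29.5% of all tested genes. Mitf, the fly counterpart of TFEB and a known activator of pump subunit genes, was at 8.48 and 8.43 in control and at 8.17 in both MJDtr-78Q libraries. The groups did not overlap, and the difference was -0.29 (SE 0.22; limma adjusted p = 1). Iml1, which encodes part of a complex that restrains TORC1 when amino acids are scarce, differed by -0.52 (SE 0.23; limma adjusted p = 0.928).

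Of 16 tested lysosomal hydrolase genes 0 passed, 8 lying above 0 and 8 below. In 10 of the 16 the groups did not overlap, in either direction, against 29.5% of all tested genes. The cause of that share was not tested. Only 1 of the 16 genes had an unadjusted p under 0.05. That gene was tobi, an alpha-glucosidase gene known as a target of insulin-producing cells rather than for a lysosomal role, at 8.57 and 8.78 in the controls and at 7.62 and 7.61 with MJDtr-78Q. Its difference was -1.06 (SE 0.23; limma adjusted p = 0.607). The hexosaminidase gene Hexo1 differed by -0.80 (SE 0.35). Of 8 tested genes of the lysosomal membrane and lipid export 0 passed, with a median of -0.14. The groups did not overlap in 4 of these 8, and 1 gene had an unadjusted p under 0.05. That was Cln7, the counterpart of a human neuronal ceroid lipofuscinosis gene, at 7.82 and 7.74 in the controls and 8.49 and 8.50 with MJDtr-78Q, a difference of 0.71 (SE 0.22; limma adjusted p = 0.704). The lysosomal carrier gene spin differed by -0.45 (SE 0.25).

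Vesicular neurotransmitter transporters use the proton gradient the pump makes. Of the 4 tested, 0 passed and 0 had an unadjusted p under 0.05, with a median of 0.09. In 1 of the 4 the groups did not overlap, against 29.5% of all tested genes. VGlut, the glutamate loader, differed by 0.11 (SE 0.22), and the related portabella gene prt by -0.19 (SE 0.27).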

How the data were processed

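RNA-seq of fly heads was compared between 2 control and 2 MJDtr-78Q libraries, grouped by title. Per the labels' protocols, poly(A) RNA was made into stranded libraries; the tools listed in the submitters' processing notes are HTSeq 0.6.1, TopHat2 2.0.10, Bowtie, cutadapt 1.2.1 and CASAVA 1.8.2. For genome build, annotation and strand setting, the sources used here name none. The table deposited by the authors holds log2(count + 1), judging by its smallest values, which had been scaled within each group in a step no label records. Their back-transformed totals are therefore equal within a group.

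The 4 libraries were quantile normalised together and compared with limma 3.58.1 in R 4.3.3 (intensity trend, two-sided, Benjamini-Hochberg at 0.05 over the 9049 genes whose mean reached 10). Trimmed-mean (TMM) and upper-quartile factors were computed from the back-transformed values. Symbols matched 15002 IDs and 680 had none. Exonic lengths were the union of exons per gene ID in Ensembl's annotation, none of whose coordinates was used. Length correction removed a loess trend (span 0.5) on log2 length from each library. The main limma fit was tried on simulated counts that held no length tilt between replicates. That trial cannot show how the fit behaves under such a tilt. The members, gene lists and tests were chosen with earlier results of these data known. All 28 Vha genes matched in the deposited table are reported. Of each other list the 2 tested genes with the lowest p are given, plus Mitf and ATP6AP2, the last added after its values were seen. Alternatives were other scalings, pseudocounts, filters, variance models, the replicate number as a block, length correction and each library left out. Depth limits precision: counting error per gene is unknown.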

Additional observations from a re-analysis of the deposited data

How the results depend on the processing

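The count of 0 genes past the threshold held for the 9049 genes and for the Vha genes under TMM and upper-quartile scaling, with pseudocounts of 0.5 and 5, without a filter, with a minimum mean of 50, with a robust prior and without an intensity trend. With the deposited scaling, whose groups differ by -1.24 at the median, 6794 genes passed, 14 of them Vha genes. Length correction gave 6 genes and 0 Vha genes. Leaving out a library gave 0 to 2 genes and 0 Vha genes, the lone library of an arm being assumed to vary like the other group.

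The labels do not say that equal replicate numbers share a batch. Deviations of same-numbered libraries had r = 0.536 over the tested genes. With the replicate number as a block 387 of 9049 genes passed (229 higher, 158 lower) and 0 Vha genes (lowest limma adjusted p = 0.736), while tobi passed (limma adjusted p = 0.0196).

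Over 15 alternatives 7 of the 15 Vha genes kept their sign. Most turns of sign came from leaving out MJDtr-78Q replicate 1 or replicate 2, given here in that order. These omissions gave 0.35 and -0.76 for Vha14-1, -0.038 and 0.12 for Vha16-1, 0.10 and -0.68 for Vha36-1, -0.22 and 0.23 for Vha55, and 0.43 and -0.77 for VhaM9.7-a. For VhaM9.7-b they gave 0.46 and -0.49, for Vha100-1 -0.51 and 0.12, for VhaSFD -0.18 and 0.097, for Rbcn-3A -0.43 and 1.44, and for prt -0.39 and 0.019. Genes that kept their sign moved too, as VhaAC45RP did (-0.0069 and -0.55). Without control replicate 2, Vha14-1 (0.031), Vha55 (-0.12), VhaM9.7-a (0.070) and VhaM9.7-b (0.20) turned. VhaM9.7-b was above 0 with TMM (0.020), upper-quartile (0.013) and length-corrected values (0.051), and with the deposited scaling relative to all genes (0.065), which put VhaSFD at 0.0023. Length correction turned Vha55 (-0.0079) and VGlut (-0.018). The cause of these turns was not tested.

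The median of the tested Vha genes stayed below 0 throughout, from -0.28 to -0.04 with a library left out. The share of VhaM9.7-b differed by 2.19 points on quantile-normalised values and by 2.25 to 3.16 with a library left out, alternatives added after seeing the data. No count-based precision can be given, since depth per gene is unknown.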
